A study of Mus musculus with 84 samples.

Results

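The 9 genes described here are mouse genes that TGF-beta signalling and its transcription factor SMAD3 are known to regulate: Smad7, Skil, Ski, Tgif1, Tgfbi, Ctgf, Cyr61, Pmepa1 and Ltbp2. They were taken by symbol from the 18909 genes of the count table, where all 9 were present. Expression had been followed by STRT RNA-seq, which sequences tags near the 5′ end of polyadenylated RNA, in 10 groups of 3 biological replicates. Each replicate was the sum of 3 wells, or of 2 wells on day 10, and the 30 resulting libraries held 1008596 to 2296059 reads.

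MEFs, mouse embryonic fibroblasts, were wild-type cells of strain 129 that were neither infected nor sorted and grew with FGF2 and heparin. ESCs were embryonic stem cells of the TNG MKOS line, also of strain 129, grown with LIF. This line carries a doxycycline-inducible cassette of Myc, Klf4, Oct4 and Sox2 (MKOS) joined to the orange reporter mOrange, with rtTA driven by the CAG promoter at Sp3. It also has GFP in place of 1 copy of Nanog. The reprogramming cells, also labelled strain 129, were MEFs with the same alleles, taken from chimeric embryos and mixed as a minority among wild-type MEFs. They had been infected with a retroviral vector for blue fluorescent protein (Cont) or for Smad3CA (+Sm3CA), grown in ESC medium with LIF, doxycycline and vitamin C, and sorted for mOrange on days 3, 6, 8 and 10. Smad3CA is a constitutively active SMAD3 whose C-terminal serines are exchanged for aspartic acid. MEFs therefore differed from Cont on day 3 in transgene, infection, medium and sort together, which cannot be told apart.

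TGF-beta and activin receptors phosphorylate SMAD2 and SMAD3, which enter the nucleus with SMAD4 and act on genes together with other transcription factors. Among the genes that respond are inhibitors that close feedback loops. SMAD7 blocks the receptors, SKI and SKIL (SnoN) are nuclear co-repressors of SMADs, TGIF1 is a homeodomain co-repressor, and PMEPA1 is a membrane protein that holds back SMAD2 and SMAD3. The others act outside the cell: TGFBI is a matrix adhesion protein, CTGF and CYR61 are matricellular proteins of the CCN family that also respond to YAP and TEAD, and LTBP2 is a relative of the proteins that hold latent TGF-beta in the matrix. In fibroblasts these genes mark a contractile, matrix-producing state.

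The pattern of these 9 genes had 3 parts. From MEFs to Cont on day 3, 8 of the 9 genes fell, most of all Ltbp2 and Ctgf. Between Cont and +Sm3CA no member was called higher on any day. On day 10 Ctgf, Cyr61 and Pmepa1 were lower with Smad3CA, with log2 fold changes of -1.16 to -0.79, calls that leaving out a single library could end. In ESCs Tgfbi, Ctgf, Cyr61, Pmepa1 and Ltbp2 were at their lowest, whereas Tgif1 was at its highest.

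The labels were checked against marker genes and against Smad3. Summed over 8 fibroblast markers, MEFs held 645.5 to 814 normalized counts (reads divided by a size factor per library), the reprogramming groups 533 to 1080 and ESCs 2.57 to 10.8, with Lum, Twist2 and Prrx1 at 0 reads in all ESC libraries. The similar sums of MEFs and reprogramming cells came from Dcn, which stood at 60.0 in MEFs and 582 in Cont on day 3 in the mean. The 7 others of the list were at lower levels by then than in MEFs in the mean, among them Thy1 (207 to 17.0), Prrx1 (341 to 84.1) and Pdgfrb (58.9 to 0.703). Summed over 6 pluripotency markers, ESCs held 28589 to 53542 and MEFs 8.89 to 12.1. Dppa5a made up most of this sum. By Nanog, ESC replicate 2 stood apart with 21.7 against 299 and 285.5 in its partners, and by Dppa4 with 275 against 841 and 774. Smad3 itself, whose reads can come from the vector as well as from the cell, was 12.2-fold, 3.91-fold, 8.45-fold and 2.02-fold as high in +Sm3CA as in Cont on days 3, 6, 8 and 10 (ratios of means). It passed the test on days 3, 6 and 8 (adjusted p = 1.51e-08, 0.00459 and 2.38e-06, edgeR's quasi-likelihood test) and not on day 10 (adjusted p = 0.12). The call of day 6 was lost without Cont replicate 1, Cont replicate 3 or +Sm3CA replicate 2 (adjusted p = 0.317, 0.0938 and 0.584). Its libraries did not overlap between the vectors on any of the 4 days. All 3 Cont day 8 libraries and +Sm3CA day 10 replicate 1 stood apart by glial and choroid plexus markers, Cont day 8 replicate 1 most of all. Mbp, a myelin protein gene, stood at 1272.5 normalized counts in Cont day 8 replicate 1 against 147 and 184 in its partners and 6.13 to 25.8 in +Sm3CA on day 8, and at 520.1 in +Sm3CA day 10 replicate 1 against 33.9 and 19.5. Ttr, transthyretin, stood at 892 in the former library against 114 and 96.0 in its partners and 0.613 to 17.3 in +Sm3CA on day 8, and at 350.5 in the latter against 0 reads in both partners. Calls of members between the vectors are given with and without Cont day 8 replicate 1 and +Sm3CA day 10 replicate 1, the highest of these. Leaving out Cont day 8 replicate 1 does not free day 8 of the difference in these markers. Fewer cells of a type and less RNA per cell cannot be told apart in these bulk libraries.

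**Figure D1:**
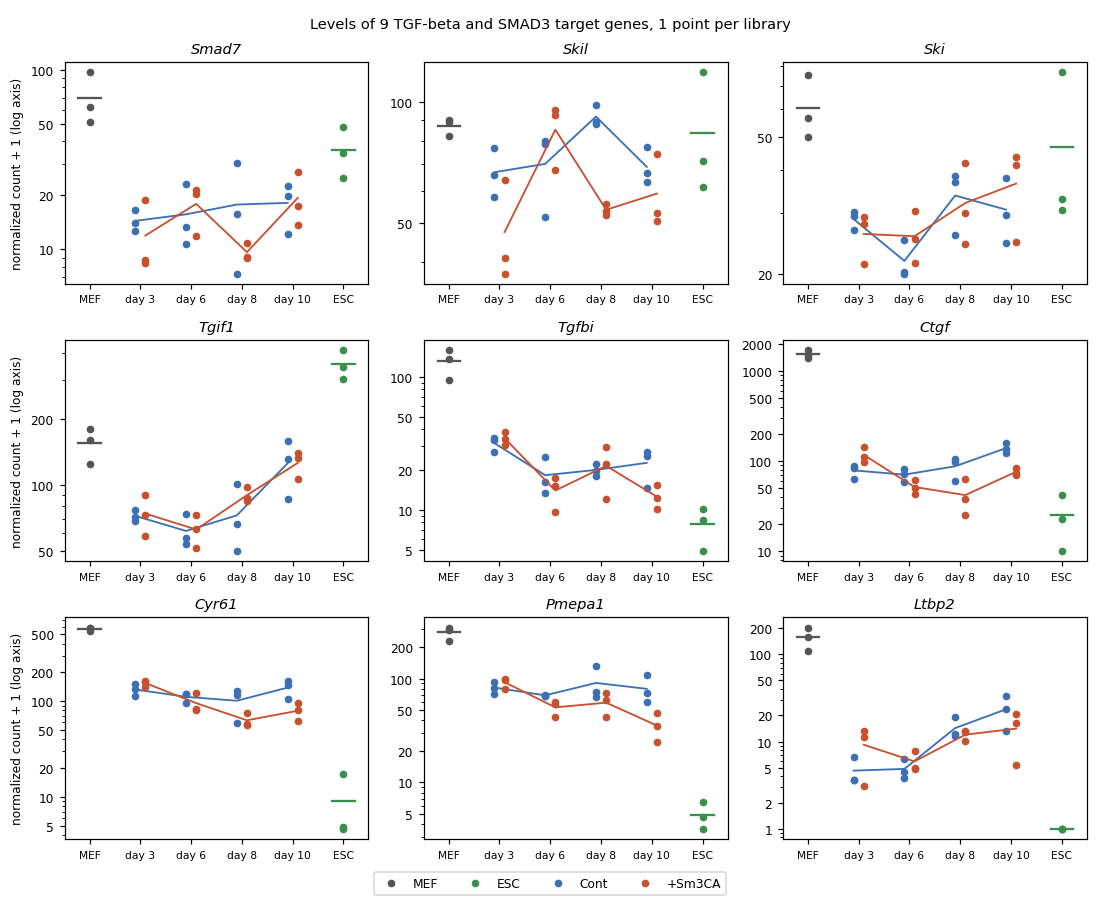
Normalized counts plus 1 (log axis, own range in each panel) of the 9 genes in MEFs, on days 3, 6, 8 and 10 with Cont or +Sm3CA, and in ESCs. Points are single libraries, short bars and line vertices are group means of 3 libraries. Ctgf, Cyr61, Pmepa1, Tgfbi and Ltbp2 start highest in MEFs and end lowest in ESCs, whereas Tgif1 is highest in ESCs.

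Cyr61, Tgfbi and Ltbp2 were all lower in Cont on day 3 than in MEFs and lowest in ESCs, as were Ctgf and Pmepa1, which had no promoter entry. The promoters of the 3 are shown to set these members side by side, as the 250 bases before the annotated start (RefSeq, GRCm38.p6, written 5′ to 3′ along the gene). The windows are chr3:145649986-145650235 on the minus strand for Cyr61 (listed as Ccn1), chr13:56609336-56609585 on the plus strand for Tgfbi and chr12:84876492-84876741 on the minus strand for Ltbp2. Capitals mark CAGAC, the SMAD binding element, or its reverse complement GTCTG in Tgfbi and Ltbp2, and in Cyr61 the TEAD motif GGAATG on the opposite strand.
Cyr61: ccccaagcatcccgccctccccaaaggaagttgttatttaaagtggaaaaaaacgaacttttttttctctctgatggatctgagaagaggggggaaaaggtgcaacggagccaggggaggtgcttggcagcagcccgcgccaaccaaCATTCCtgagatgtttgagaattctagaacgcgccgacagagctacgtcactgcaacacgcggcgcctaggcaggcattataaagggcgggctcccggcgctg
Tgfbi: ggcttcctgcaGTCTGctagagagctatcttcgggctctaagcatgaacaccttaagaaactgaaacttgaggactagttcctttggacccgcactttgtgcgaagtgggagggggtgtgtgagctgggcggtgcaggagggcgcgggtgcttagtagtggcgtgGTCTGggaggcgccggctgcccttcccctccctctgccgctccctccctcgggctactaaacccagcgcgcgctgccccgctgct
Ltbp2: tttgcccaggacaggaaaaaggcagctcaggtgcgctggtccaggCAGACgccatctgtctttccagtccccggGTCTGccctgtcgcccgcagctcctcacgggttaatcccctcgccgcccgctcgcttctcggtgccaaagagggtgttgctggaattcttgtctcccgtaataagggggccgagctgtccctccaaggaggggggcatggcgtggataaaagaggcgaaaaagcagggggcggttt
CAGAC was found at 2 places in the Tgfbi window, at 2 places in the Ltbp2 window and at 0 places in the Cyr61 window, and GGAATG at 1 place in the Cyr61 window. The palindrome GTCTAGAC and the AP-1 motif TGANTCA, where N is any base, were in none of the 3. Of 32851 promoter windows of the same length, 42.2% held CAGAC on either strand, 0.167% GTCTAGAC, 6.75% TGANTCA and 12.6% GGAATG, so a CAGAC match is common. The motifs did not overlap one another in these windows. Of the members with an entry that are not shown, Tgif1, highest in ESCs, had CAGAC at up to 2 places in some of its windows. Ski had it at 0 places. A match is a string of letters and not a measured binding site.

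Ltbp2 and Ctgf showed the deepest falls of the members on entry into reprogramming. Ctgf (Ccn2, chromosome 10, 24595442 to 24598683, plus strand, GRCm38, protein-coding) stood at 1490, 1399 and 1715 normalized counts in the 3 MEF libraries and at 62.4, 88.2 and 83.7 in Cont on day 3. All 3 Cont libraries lay far below all 3 MEF libraries, at 5.09% of the MEF mean, a log2 fold change of -4.18 ± 0.28 (SE; adjusted p = 4.32e-16 by edgeR). Ltbp2 (chromosome 12, 84783212 to 84876532, minus strand, protein-coding) stood at 109, 154 and 201 normalized counts in MEFs and at 2.67, 2.59 and 5.69 in Cont on day 3, which were 3, 2 and 7 reads. It fell by 5.19 on the log2 scale (SE 0.47, adjusted p = 7.75e-12), and the Cont level is close to the 3 reads taken as the limit of detection, so the size of this fall is imprecise.

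Cyr61 (chromosome 3, 145646976 to 145649981, minus strand, protein-coding) stood at 586, 542 and 587 in MEFs and at 113, 149 and 132 in Cont on day 3, a log2 fold change of -2.01 ± 0.25 (SE; adjusted p = 9.75e-09). Tgfbi (chromosome 13, 56609523 to 56639562, plus strand, protein-coding) stood at 158, 93.3 and 136 in MEFs and at 32.1, 33.7 and 26.0 in Cont on day 3, a log2 fold change of -1.96 ± 0.30 (adjusted p = 1.08e-06). Neither gene had overlapping libraries in this comparison.

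Of the feedback inhibitors, 4 fell and Skil was not called. Pmepa1 (chromosome 2, 173224458 to 173276533, minus strand, protein-coding) stood at 231, 294 and 309 in MEFs and at 70.4, 80.4 and 91.9 in Cont on day 3, a log2 fold change of -1.66 ± 0.25 (SE; adjusted p = 6.06e-07). Smad7 stood at 50.0, 60.8 and 95.9 in MEFs and at 11.6, 15.6 and 13.0 in Cont on day 3, a log2 fold change of -2.26 ± 0.41 (adjusted p = 1.68e-05). Ski (chromosome 4, 155154075 to 155222592, minus strand, protein-coding) went from 59.6 ± 13.2 to 27.9 ± 1.80 (SD, n = 3) and Tgif1 (chromosome 17, 70844205 to 70853546, minus strand, protein-coding) from 153 ± 28.4 to 71.0 ± 4.27. Both fell by 0.98 on the log2 scale (adjusted p = 0.0088 for Ski and 0.000925 for Tgif1 by edgeR), but Ski lost its call without MEF replicate 3, its highest MEF library (-0.77, adjusted p = 0.0707). Skil (chromosome 3, 31095058 to 31122577, plus strand, protein-coding) was the exception, with 81.1, 87.9 and 89.0 in MEFs and 75.8, 64.9 and 56.9 in Cont on day 3. Its libraries did not overlap, but it did not pass the test (adjusted p = 0.384). In all, 8 of the 9 members were called lower, where 20.9% of the 10979 genes tested were called lower, and the median log2 fold change was -1.96 over the members and 0.00 over all genes.

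The other genes of the pathway, from lists chosen with results of these data known, were counted in the same step. Over all 10979 genes tested, 2290 were called lower and 2480 higher. Of 25 other TGF-beta response genes, 19 were called lower and 2 higher. The falls were led by Cnn1, a smooth muscle calponin, from 561 to 8.33 normalized counts (-5.93, SE 0.42). Those called higher were Klf10, an early TGF-beta response factor, from 45.7 to 171 (2.03, SE 0.21), and Tgif2, the paralogue of Tgif1, from 10.9 to 22.4 (1.13, SE 0.37). Of 20 SMAD pathway components 15 could be tested, and 6 were called lower and 2 higher. The ligand genes Inhba and Tgfb3 led the falls, Inhba from 628 to 29.9 and Tgfb3 from 122 to 9.98, and the activin receptor gene Acvr2b, with 0 reads in MEFs and 7.95 normalized counts in Cont on day 3, and Nedd4l, a ubiquitin ligase, from 8.00 to 31.4, were higher. Of 12 YAP and TEAD target genes 9 were called lower and 0 higher, led by Ankrd1 (1106 to 23.9) and Axl (453.5 to 33.4). Of the 4 other CCN family genes 2 could be tested, and both Wisp1 and Wisp2 were called lower, Wisp1 from 626.5 to 86.9 and Wisp2 from 18.2 to 3.19 normalized counts. Tgif2 and Wisp2 lost their calls without Cont day 3 replicate 1 (adjusted p = 0.0992 and 0.123) or MEF replicate 1 (0.0973 and 0.0626).

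**Figure D2:**
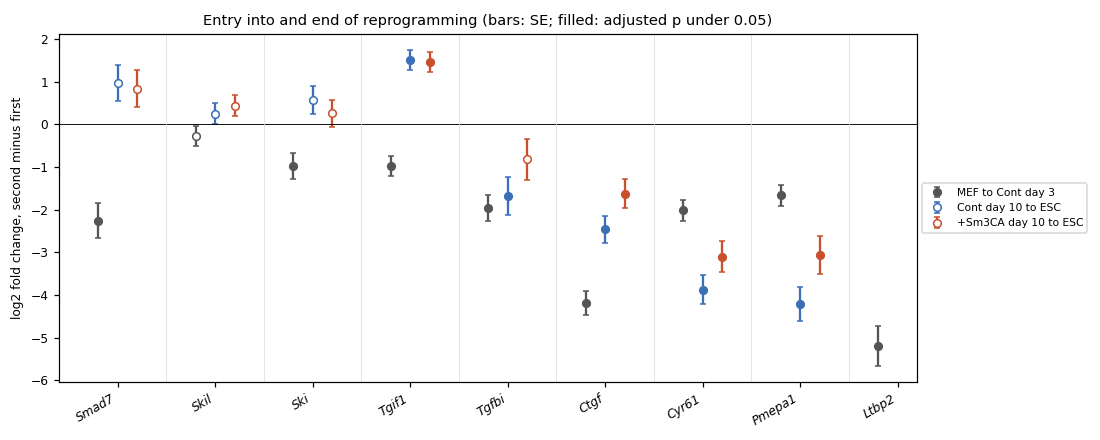
Log2 fold changes of the 9 genes from MEFs to Cont on day 3 and from day 10 to ESCs (second group minus the former; bars are standard errors, filled points have an adjusted p under 0.05). Ltbp2 is not drawn for ESCs, where it had 0 reads. From MEFs to Cont on day 3 all points except Skil are filled and below 0, and toward ESCs the filled points are below 0 except those of Tgif1.

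From day to day in Cont, no member was called in any of the 3 steps. From day 3 to 6, 0 of 9 members were called by edgeR and by DESeq2 and 1 had an unadjusted p under 0.05, where 9.12% of 10237 genes were called. From day 6 to 8 the counts were 0, 0 and 2, where 1.69% of genes were called, and from day 8 to 10 again 0, 0 and 2, where 2.4% of genes were called. The members were not flat in their means. Ltbp2 stood at 3.65 ± 1.76, 3.87 ± 1.25, 13.3 ± 4.04 and 22.4 ± 9.96 normalized counts on days 3, 6, 8 and 10, and the step from day 6 to day 8, with no overlap of libraries, came to 1.77 ± 0.56 (SE) on the log2 scale with an adjusted p of 0.109. Ctgf stood at 78.1 ± 13.8, 69.9 ± 12.2, 86.8 ± 23.6 and 138 ± 18.4 on the same days. Tgif1 stood at 71.0 ± 4.27, 60.5 ± 10.7, 71.4 ± 26.3 and 124 ± 36.9, and its step from day 8 to 10 (0.77 ± 0.23, adjusted p = 0.0648) passed the threshold without Cont day 8 replicate 3 (1.09, adjusted p = 0.0102) or without Cont day 10 replicate 2 (0.96, adjusted p = 0.0251), and came to 0.55 (adjusted p = 0.368) without Cont day 8 replicate 1. Without the same library the step of Ltbp2 from day 6 to 8 came to 1.85 (adjusted p = 0.139) and the step of Ctgf from day 8 to 10, which was 0.66 with an adjusted p of 0.137, to 0.45 (adjusted p = 0.528).

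With Smad3CA the early step held calls. From day 3 to 6, Tgfbi, Ctgf, Cyr61 and Pmepa1 were called lower and Skil higher, 4 of 9 members where 8.97% of genes were called lower and 1 of 9 where 9.62% were called higher. Ctgf stood at 143, 109 and 97.0 normalized counts on day 3 and at 41.9, 60.5 and 49.9 on day 6, all below the day 3 libraries, a log2 fold change of -1.18 ± 0.25 (SE; adjusted p = 0.000697). Tgfbi went from 33.0, 29.7 and 37.6 to 8.55, 14.0 and 16.2 (-1.37 ± 0.35, adjusted p = 0.00506), again without overlap. Pmepa1 went from 91.3 ± 10.9 to 51.8 ± 8.71 (-0.80 ± 0.25) and Cyr61 from 154 ± 11.1 to 94.3 ± 22.5 (-0.67 ± 0.22), with adjusted p = 0.0227 and 0.0274 by edgeR. Skil, the nuclear co-repressor, went the other way, from 39.9, 63.1 and 36.5 to 91.5, 66.8 and 94.5 (0.86 ± 0.23, adjusted p = 0.00611).

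These calls were not equally firm. The call of Tgfbi was lost without +Sm3CA day 6 replicate 1 (adjusted p = 0.053). That of Pmepa1 was lost without +Sm3CA day 3 replicate 1, day 3 replicate 3 or day 6 replicate 1 (adjusted p = 0.0669, 0.0663 and 0.129). That of Cyr61 was lost without day 3 replicate 1, day 3 replicate 2, day 6 replicate 1 or day 6 replicate 3 (adjusted p = 0.0694, 0.0791, 0.144 and 0.105), and the median over the members moved from -0.67 to -0.38 without day 3 replicate 1. Ctgf and Skil were called without each library in turn. Whether this step differed from that of Cont was tested by the change of the difference between the vectors from day 3 to day 6. No member and no gene passed (0 of 9 members by edgeR and by DESeq2, 2 with an unadjusted p under 0.05, and 0.0% of genes called). Ctgf came to -1.02 ± 0.35 (SE) and Skil to 0.79 ± 0.32, with adjusted p = 0.976 for each.

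In the later steps with Smad3CA, 0 of 9 members were called from day 6 to 8 by edgeR and 1 by DESeq2, with 4 at an unadjusted p under 0.05, where 6.68% of genes were called. Skil was the member called by DESeq2, with a log2 fold change of -0.68 (adjusted p = 0.049), from 84.2 ± 15.2 to 53.0 ± 1.81 without overlap of libraries, and it passed by edgeR without +Sm3CA day 6 replicate 2 (-0.84, adjusted p = 0.0296). From day 8 to 10, 1 of 9 members was called higher, where 2.43% of genes were. This was Ctgf, from 37.1, 61.9 and 24.2 to 70.1, 83.0 and 72.9 (0.87 ± 0.26, adjusted p = 0.0415). The call was lost without each of +Sm3CA day 8 replicates 1 and 3 and day 10 replicates 1, 2 and 3 (adjusted p = 0.122, 0.152, 0.0789, 0.149 and 0.0883), so it was close to the threshold. The log2 fold change in these fits was 0.62 to 0.92. Pmepa1, not called here (-0.73 ± 0.28, adjusted p = 0.12), was called lower without +Sm3CA day 8 replicate 3 (-0.91, adjusted p = 0.0471).

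**Figure D3:**
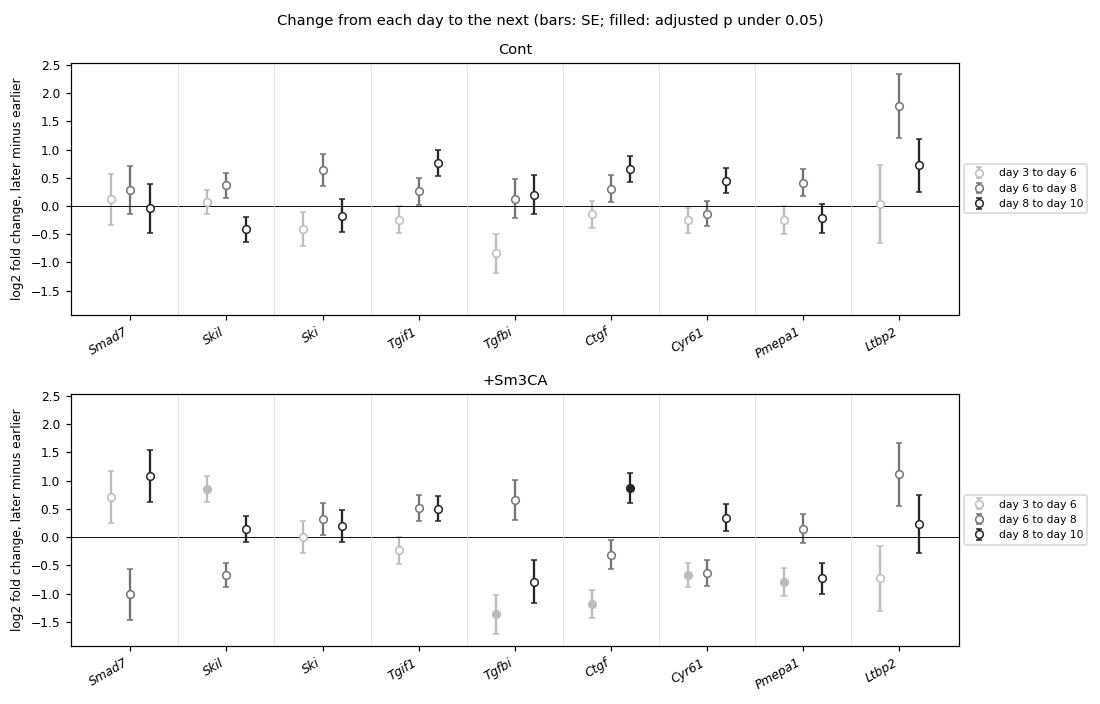
Log2 fold changes of the 9 genes from each sampled day to the next in Cont (upper panel) and +Sm3CA (lower panel), later minus earlier day, with standard errors as bars. Filled points have an adjusted p under 0.05: none in Cont, 5 from day 3 to 6 and 1 from day 8 to 10 in +Sm3CA.

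The comparison of the vectors on the same day asked whether active SMAD3 moved its known targets. On day 3, when Smad3 itself differed most, 0 of 9 members were called by edgeR and by DESeq2 and 2 had an unadjusted p under 0.05, where 0.0195% of genes were called. Ctgf alone did not overlap, with 62.4, 88.2 and 83.7 in Cont and 143, 109 and 97.0 in +Sm3CA. The log2 fold change of 0.58 ± 0.24 (SE) did not pass (adjusted p = 0.843). For scale, 11.6% of all genes tested had libraries that did not overlap on day 3. None of the inhibitors, often used to read TGF-beta activity, was called: Pmepa1 had 80.9 ± 10.7 in Cont and 91.3 ± 10.9 in +Sm3CA, Tgif1 71.0 ± 4.27 and 72.9 ± 15.8, Ski 27.9 ± 1.80 and 25.1 ± 4.16, Smad7 13.4 ± 2.02 and 10.9 ± 5.88, and Skil 65.8 ± 9.47 and 46.5 ± 14.4 (-0.51 ± 0.23, adjusted p = 0.93). Ltbp2, at 3.65 ± 1.76 and 8.19 ± 5.39, overlapped and rested on 2 to 16 reads a library. The sums of some marker lists did not overlap between the vectors on day 3. The 4 epithelial markers summed to 160 to 184 in Cont and 185 to 277 in +Sm3CA, and the pluripotency markers to 25.0 to 36.3 and 14.6 to 24.1. The part of these differences in the result was not tested.

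On day 6, again 0 of 9 members were called by edgeR and by DESeq2, none had an unadjusted p under 0.05 by edgeR, and 0.00977% of genes were called. Pmepa1 alone did not overlap, with 69.2, 67.0 and 67.6 in Cont and 41.9, 58.2 and 55.3 in +Sm3CA (adjusted p = 1), on a day when 11.5% of all genes did not overlap. Sums of marker lists also did not overlap on day 6. The macrophage markers summed to 1397 to 1924.5 in Cont and 581 to 996 in +Sm3CA. The fibroblast markers summed to 616 to 762 and 533 to 598, and the epithelial markers to 869 to 1014.5 and 775.5 to 791. The part of these differences in the result was not tested.

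On day 8, Ctgf was called lower, 1 of 9 members where 0.654% of genes were called lower. It stood at 60.0, 96.0 and 104 in Cont and at 37.1, 61.9 and 24.2 in +Sm3CA, so that 1 library of each vector overlapped, with a log2 fold change of -1.06 ± 0.25 (SE; adjusted p = 0.0232). Cont replicate 1, the library highest in glial markers, was the lowest of its group in Ctgf. Without it the value came to -1.26 (adjusted p = 0.0104), and Cyr61 was called as well (-0.95, adjusted p = 0.0248, against -0.69 ± 0.23 and 0.115 with it). The call of Ctgf was lost without Cont replicate 2, Cont replicate 3 or +Sm3CA replicate 1 (adjusted p = 0.0903, 0.103 and 0.0873) and in a fit of these 6 libraries alone (adjusted p = 0.184). Skil alone did not overlap, with 87.2, 97.1 and 88.3 in Cont and 51.3, 52.7 and 54.9 in +Sm3CA. It missed the threshold by edgeR (-0.76 ± 0.22, adjusted p = 0.071) and passed by DESeq2 (-0.77, adjusted p = 0.0362) and without +Sm3CA replicate 3 (-0.79, adjusted p = 0.048). On this day 15.9% of all genes did not overlap. Smad7, with 14.7, 6.33 and 29.2 in Cont and 9.89, 7.97 and 8.07 in +Sm3CA, overlapped (-1.01 ± 0.44, adjusted p = 0.253). The median over the members was -0.64 beside 0.00 over all genes, and moved to -0.25 without Cont replicate 3. On this day too the sums of further marker lists did not overlap between the vectors. The keratinocyte markers summed to 242 to 319 in Cont and 106 to 165.5 in +Sm3CA. The pluripotency markers summed to 42.4 to 53.8 and 67.4 to 95.3. The fibroblast markers, most of it Dcn, summed to 641 to 731 and 751.5 to 1033, and the epithelial markers to 647 to 735 and 752 to 826. The part of these differences in the result was not tested.

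On day 10, 3 of 9 members were called lower and 0 higher, where 2.74% of genes were called lower. The same 3 were the members whose libraries did not overlap, as was the case for 20.7% of all genes. Pmepa1 stood at 58.0, 106 and 71.6 in Cont and at 33.6, 45.9 and 23.4 in +Sm3CA, a log2 fold change of -1.16 ± 0.28 (SE; adjusted p = 0.0105). Ctgf stood at 121, 158 and 137 in Cont and at 70.1, 83.0 and 72.9 in +Sm3CA (-0.86 ± 0.24, adjusted p = 0.0361). Cyr61 stood at 104, 146 and 163 in Cont and at 79.9, 93.9 and 61.2 in +Sm3CA (-0.79 ± 0.23, adjusted p = 0.0452). Every +Sm3CA library was below every Cont library in each of these genes. Tgfbi (13.6, 26.3 and 24.5 against 11.2, 14.2 and 9.11) and Ltbp2 (12.3, 32.3 and 22.6 against 15.4, 4.37 and 19.5) were lower in their means but overlapped and were not called (-0.87 ± 0.39 and -0.78 ± 0.50, adjusted p = 0.26 and 0.473, and -0.83 and -0.91 without +Sm3CA replicate 1). None of the co-repressors or Smad7 was called, and their libraries overlapped: Tgif1 had 124 ± 36.9 in Cont and 125 ± 17.3 in +Sm3CA, Ski 29.8 ± 6.80 and 35.6 ± 10.3, Skil 68.0 ± 7.43 and 58.2 ± 13.0, and Smad7 17.2 ± 5.40 and 18.3 ± 6.92.

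Each of the 3 calls of day 10 could be lost by leaving out a single library. Without Cont replicate 2, Cont replicate 3 or +Sm3CA replicates 1, 2 or 3, Ctgf came to an adjusted p of 0.179, 0.107, 0.134, 0.0882 and 0.142, and Cyr61 to 0.157, 0.26, 0.118, 0.0624 and 0.248. The log2 fold changes in these fits were -0.92 to -0.75 for Ctgf and -0.94 to -0.63 for Cyr61. Pmepa1 lost its call without Cont replicate 2 (-0.88, adjusted p = 0.142) or +Sm3CA replicate 3 (-0.93, adjusted p = 0.117). It kept it without +Sm3CA replicate 1, the library with glial markers (-1.12, adjusted p = 0.0471). By DESeq2, Ctgf and Cyr61 came to adjusted p = 0.053 and 0.0605 at nearly the same fold change. The median over the members was -0.78 beside -0.01 over all genes, and moved to -0.44 without Cont replicate 2 and to -0.40 without +Sm3CA replicate 2. Cell type markers differed within the same libraries. Summed over the 5 macrophage markers in the table, Cont replicates 2 and 3 held 2638 and 2446 normalized counts, Cont replicate 1 held 599 and the +Sm3CA libraries 855 to 1544. Lyz2 made up most of these sums, with 530, 2412 and 2257 in Cont replicates 1, 2 and 3. Summed over the 8 fibroblast markers, Cont held 659 to 1049 and +Sm3CA 710 to 858, most of it Dcn (741 and 686 in the mean). Other fibroblast markers were lower in the mean with Smad3CA, among them Prrx1 (94.6 and 42.4), Thy1 (13.1 and 6.62), Pdgfrb (13.8 and 4.79) and Pdgfra (5.88 and 2.60), whereas Lum was higher (17.7 and 34.5). Further lists did not overlap between the vectors on day 10: the 6 pluripotency markers summed to 357 to 913 in Cont and 949 to 2150 in +Sm3CA, and the 2 keratinocyte markers, nearly all of it Krt14, to 330 to 413 and 54.7 to 185. The part of these marker differences in the result was not tested.

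**Figure D4:**
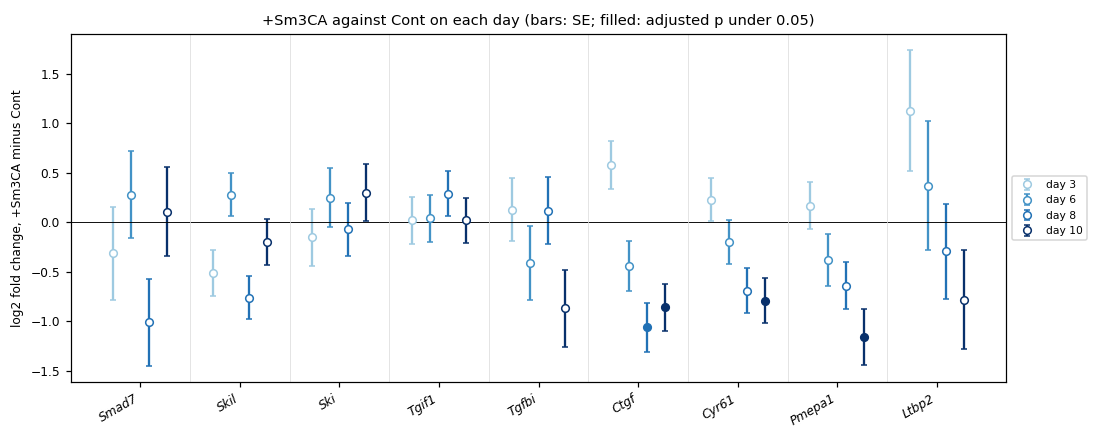
Log2 fold change of each of the 9 genes in +Sm3CA against Cont on days 3, 6, 8 and 10 (bars are standard errors, filled points have an adjusted p under 0.05, n = 3 libraries a group). The filled points are Ctgf on days 8 and 10 and Cyr61 and Pmepa1 on day 10, all below 0.

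For Ctgf the vectors were in opposite order early and late, and the change of the difference was tested directly. From day 3 to day 10 the difference between +Sm3CA and Cont changed by -1.44 ± 0.34 (SE) on the log2 scale (adjusted p = 0.0253), 1 of 9 members where 0.899% of genes were called lower. It was lost without each of Cont day 3 replicates 1 and 3, Cont day 10 replicates 2 and 3, +Sm3CA day 3 replicate 1 and +Sm3CA day 10 replicates 1, 2 and 3 (adjusted p = 0.115, 0.0515, 0.0991, 0.0642, 0.0699, 0.0654, 0.0575 and 0.0779). Pmepa1 and Cyr61 came to -1.33 ± 0.37 and -1.02 ± 0.32 (adjusted p = 0.0768 and 0.122), and both passed without Cont day 10 replicate 1 (adjusted p = 0.0298 and 0.0495). From day 3 to day 8, 0 of 9 members were called by edgeR and 1 by DESeq2, with 3 at an unadjusted p under 0.05, where 0.0293% of genes were called. Ctgf came to -1.65 ± 0.34 (adjusted p = 0.0565), to -1.69 (adjusted p = 0.0258) once replicate numbers entered the fit as a block, and to -1.84 (adjusted p = 0.0147) without Cont day 8 replicate 1.

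Other genes of the pathway moved in the same comparison. Of 25 other TGF-beta response genes, 22 could be tested between the vectors. None was called on day 3 or day 6, 3 were called lower on day 8 and 11 on day 10, and 0 were called higher on any day. The median log2 fold change on day 10 was -0.90 beside -0.01 over all genes. The 11 included genes of the contractile cytoskeleton: Acta2, smooth muscle actin, stood at 638, 795 and 743 in Cont and at 172, 123 and 141 in +Sm3CA on day 10 (-2.30 ± 0.26, adjusted p = 4.94e-07), and Tagln, transgelin, at 211, 290.3 and 299.6 and at 81.3, 84.1 and 46.9 (-1.90 ± 0.25, adjusted p = 6.12e-06). Acta2, Tagln and Tpm1, a tropomyosin, were also the 3 of day 8 (-1.29, -1.39 and -0.74), and Tpm1 came to -0.81 on day 10. The rest were matrix genes and a cell cycle inhibitor: Thbs1 (-2.10 ± 0.30), Postn (-1.69 ± 0.40), Timp3 (-1.61 ± 0.27), Lox, the collagen cross-linking enzyme (-1.57 ± 0.25), Col1a1 (-1.28 ± 0.30), Fn1 (-1.08 ± 0.21), Col1a2 (-0.98 ± 0.22) and Cdkn1a (-0.63 ± 0.17). Without the +Sm3CA day 10 replicate 1 library 10 genes of this list were called, and Cdkn1a lost its call (adjusted p = 0.0874 by edgeR). Over leaving out each library in turn, 6 (without Cont day 10 replicate 2) to 12 were called, with 7 without Cont replicate 3 or +Sm3CA replicate 3. Acta2, Tagln, Thbs1, Timp3, Lox and Fn1 were called in each of these day 10 fits. The Cont libraries were spread in some of them. Replicate 1 stood at 328 against 888 and 836 in its partners for Thbs1, at 152 against 473 and 452 for Timp3, and at 160.5 against 366 and 341 for Lox. Without 1 of the day 10 libraries the others came to an adjusted p of up to 0.128 (Cdkn1a), 0.108 (Col1a1), 0.0948 (Postn), 0.0908 (Tpm1) and 0.0843 (Col1a2). On day 8, 1 gene of the list, Tagln, was called without Cont replicate 2, and Acta2 and Tpm1 came to an adjusted p of 0.0619 and 0.265.

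Of the SMAD pathway components, 14 could be tested between the vectors. Besides Smad3, Inhba, which encodes the activin A subunit, was called lower with Smad3CA on day 8 (-2.58 ± 0.64, adjusted p = 0.0356) and day 10 (-3.59 ± 0.83, adjusted p = 0.0071). On day 10 it stood at 8.64, 16.7 and 37.7 in Cont and at 2.80, 1.09 and 1.30 in +Sm3CA, so the fold is imprecise, and the call was lost without Cont replicate 3, +Sm3CA replicate 2 or +Sm3CA replicate 3 (adjusted p = 0.118, 0.0624 and 0.0523). The call of day 8 was lost without Cont replicate 1, 2 or 3 or +Sm3CA replicate 2 (adjusted p = 0.0622, 0.0557, 0.0983 and 0.191). On day 3 the order was the reverse, with 29.9 in Cont and 53.2 in +Sm3CA in the mean, and the change of the difference from day 3 to day 10 was -4.45 ± 0.96 (adjusted p = 0.0122). Smad2, which the vector does not encode, was not called on any day in the main fit. On days 6, 8 and 10, however, all its +Sm3CA libraries were above all Cont libraries. Its means were 64.3, 75.0 and 74.5 in +Sm3CA and 53.9, 51.5 and 53.4 in Cont. Libraries did not overlap, in either direction, for 11.5%, 15.9% and 20.7% of all genes on these days. On day 8 Smad2 passed in 1 of 11 alternative fits. Of 12 YAP and TEAD target genes, Ankrd1 and Amotl1 were called lower on day 8 (-3.92 ± 0.81 and -1.26 ± 0.31) and Ankrd1 and Axl on day 10 (-2.65 ± 0.63 and -1.60 ± 0.41), with 0 called higher on any day. The shares of all genes called lower were 0.654% on day 8 and 2.74% on day 10. Wisp1, a CCN family gene, was called lower on day 10 (-1.16 ± 0.26, adjusted p = 0.0051), and stood at 64.2, 87.2 and 68.8 in Cont and at 22.4, 21.8 and 53.4 in +Sm3CA. Each of these calls was lost without 1 or more single libraries: on day 8 Ankrd1 came to an adjusted p of up to 0.0619 (without Cont replicate 2) and Amotl1 to 0.159 (without +Sm3CA replicate 2), and on day 10 Ankrd1 to 0.105 (without Cont replicate 1), Axl to 0.163 (without +Sm3CA replicate 3) and Wisp1 to 0.0948 (without +Sm3CA replicate 2). Amotl1 also lost its call without Cont day 8 replicate 1, the library highest in glial markers (adjusted p = 0.0668 by edgeR). Without +Sm3CA day 10 replicate 1, Ankrd1 and Wisp1 lost theirs on day 10 (adjusted p = 0.0694 and 0.0622 by edgeR).

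The last comparison set day 10 against ESCs. From Cont on day 10, 1 of 9 members was called higher and 5 lower in ESCs, where 21.5% of genes were called higher and 30.3% lower. From +Sm3CA on day 10, 1 was called higher and 4 lower, where 18.6% and 27.2% were. These comparisons share the ESC libraries. Tgif1 stood at 343.5, 303.5 and 411.5 in ESCs, above every other library of the series, which for day 10 came to 1.51 ± 0.23 (SE) from Cont and 1.47 ± 0.23 from +Sm3CA (adjusted p = 6.62e-07 and 1.55e-06). Pmepa1 stood at 5.48, 3.61 and 2.57 in ESCs (-4.21 ± 0.41 from Cont and -3.06 ± 0.45 from +Sm3CA), and Cyr61 at 16.4, 3.61 and 3.86 (-3.87 ± 0.35 and -3.10 ± 0.37). Ctgf stood at 21.9, 9.03 and 41.1 (-2.46 ± 0.31 and -1.62 ± 0.33). Tgfbi stood at 7.31, 9.03 and 3.86, and was called lower than Cont (-1.68 ± 0.44, adjusted p = 0.0014) but not than +Sm3CA (-0.82 ± 0.49, adjusted p = 0.166), a difference between the vectors that on day 10 itself was not called. Ltbp2 had 0 reads in every ESC library. Against the 3 reads a library that a count of 0 allows, its level was at least 38.6-fold higher in MEFs, at least 5.59-fold higher in Cont and at least 3.27-fold higher in +Sm3CA on day 10.

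Smad7 was higher in ESCs than on day 10 in its mean, at 34.7 ± 11.7 against 17.2 ± 5.40 in Cont and 18.3 ± 6.92 in +Sm3CA, and narrowly not called (0.97 ± 0.43 and 0.84 ± 0.43, adjusted p = 0.0541 and 0.106). It passed against Cont without ESC replicate 1 (1.21, adjusted p = 0.0302) or Cont day 10 replicate 2 (1.16, adjusted p = 0.0498). Ski (32.0, 75.9 and 29.6 in ESCs) and Skil (70.3, 117.4 and 60.4) were spread widely among the ESC libraries, with replicate 2, the library that stood apart by Nanog, highest in both. Ski passed against Cont without ESC replicate 3 (0.83, adjusted p = 0.0462) and came to 0.14 (adjusted p = 0.765) without ESC replicate 2. Without ESC replicate 2 no call of a member from day 10 to ESCs was lost or gained. From MEFs to ESCs, 8 members were called without it in place of 7. Without +Sm3CA day 10 replicate 1, the log2 fold changes from +Sm3CA on day 10 to ESCs were 1.37 for Tgif1, -3.08 for Pmepa1, -3.08 for Cyr61 and -1.66 for Ctgf, and each was still called.

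From MEFs directly to ESCs, 6 of 9 members were called lower, where 30.5% of genes were, and Tgif1 alone was called higher, where 29.1% were. Pmepa1, Cyr61 and Ctgf stood in ESCs at 1.40%, 1.40% and 1.57% of their MEF means, Tgfbi at 5.22%, Smad7 at 50.4%, Ski at 76.9%, Skil at 96.2% and Tgif1 at 230.1%. The call of Smad7 (-0.95 ± 0.38, adjusted p = 0.0294) was lost without MEF replicate 3, ESC replicate 1 or ESC replicate 3 (adjusted p = 0.216, 0.133 and 0.0606). Of the 25 other TGF-beta response genes 22 were called lower and 2 higher, of 15 SMAD pathway components 7 and 3, of 12 YAP and TEAD targets 10 and 0, and of the CCN family genes 2 and 0. Col1a2 and Col3a1, the collagen genes with the largest fitted falls, went from 2311 and 545 normalized counts in MEFs to 0 reads in all ESC libraries, as did Inhba, Tgfb2, Tgfb3, Wisp1 and Wisp2, while Ankrd1 went from 1106 to 0.429 and Axl from 453.5 to 3.15. The response genes called higher were Tgif2, from 10.9 to 37.5, and Klf10, from 45.7 to 82.5. Of the components, Acvr2b went from 0 to 23.9 and Trim33, a SMAD4 ubiquitin ligase, from 34.4 to 67.9.

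The order of the 10 groups was set apart only at its ends. By mean level, MEFs were highest in Smad7, Ski, Tgfbi, Ctgf, Cyr61, Pmepa1 and Ltbp2, ESCs in Tgif1 and Cont on day 8 in Skil. ESCs were lowest in Tgfbi, Ctgf, Cyr61, Pmepa1 and Ltbp2. Of the 9 pairs of neighbours in that order, the libraries of the pair overlapped in all 9 for Skil and Ski, in 8 for Smad7, Tgif1 and Ctgf and in 7 for Tgfbi, Cyr61, Pmepa1 and Ltbp2. The pairs that did not overlap were MEFs or ESCs against the next group. Among the 8 reprogramming groups no neighbours in any member's order were apart.

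Across the 30 libraries, the 5 genes that ended lowest in ESCs (Tgfbi, Ctgf, Cyr61, Pmepa1 and Ltbp2) followed each other with Pearson's r from 0.71 to 0.96 on log2(normalized count + 1), and the 4 others with r from 0.18 to 0.65. Between the 5 and the 4, r ran from -0.56 to 0.48. The 5 are named by their levels in these same libraries, so a high r among them is partly built in. These correlations describe groups that share libraries, batch and depth, and most of the spread lies between MEFs, reprogramming cells and ESCs. By the same measure, the genes most like each member among 6584 genes with a mean of at least 20 normalized counts were Thy1 (0.96) and Surf4 (0.94) for Tgfbi, Myl9 and Tgfb1i1 (both 0.94) for Ctgf, Dap and Sparc (both 0.96) for Cyr61, Ptgs2 and Tm4sf1 (both 0.97) for Pmepa1, and Cxcl12 and Thbs2 (both 0.94) for Ltbp2. Tgif1 was followed by Gemin4 (0.94) and Pgk1 (0.92), Smad7 by AI597468 and Snx30 (both 0.82), Ski by Lasp1 (0.81) and Yap1 (0.79), and Skil by Sin3b (0.65) and Acot13 (0.64). Skil thus had the least similar partners of the 9. Ptgs2, the most similar gene to Pmepa1 with Tm4sf1, stood at 928 in MEFs, 113 in Cont and 32.3 in +Sm3CA on day 10 and 0.907 in ESCs.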

How the data were processed

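Raw read counts per gene and well had been deposited by the authors, without normalization, for 18909 genes in 84 wells. Per the submitters' processing notes, Bowtie 0.12.9, DESeq2 1.6.3 and the genome build mm10 were named; the counts are of reads, not molecules, so counting intervals cover counting error only. Wells of a replicate were summed to 30 libraries (1008596 to 2296059 reads), and 3 reads a library were taken as the limit of detection. Normalized counts were reads divided by DESeq2 1.42.0 size factors over all libraries.

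Differences were tested with edgeR 4.0.16 in R 4.3.3 (TMM, filterByExpr, quasi-likelihood test, Benjamini-Hochberg adjustment over all genes tested, threshold 0.05). The 24 reprogramming libraries shared 1 fit (10237 genes), and all 30 libraries shared another for contrasts with MEFs or ESCs (10979 genes). All 9 members passed both filters. Standard errors are the log2 fold change divided by the square root of F. DESeq2's Wald test, its size factors, no filter, other sets of libraries, leaving out each library and a replicate block were alternatives. Tests of the change of the difference from day 3 to days 6 and 8 were added after seeing the data. In data simulated from these libraries for +Sm3CA against Cont on day 10, edgeR tested 9960 genes, called 167 of 200 genes changed 4-fold in either direction, and called 7 unchanged genes. Changes smaller than 4-fold were not simulated.

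The labels state that replicates are paired over the days within each series. Deviations from the group means correlated from -0.082 to 0.134 between successive days of the same number (over 0.1 in 2 of 18 pairs), and the block changed no call of a member in these steps. The numbers are not stated to come from separate animals, so p-values measure the spread between these samples.

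The members and gene lists were chosen with earlier results of these data known. From the lists, genes called between the vectors on any day were named, with the 2 largest called changes of each list in each direction from MEFs to Cont on day 3 and to ESCs. Values that rest on certain genes are not reported here. Positions are from GENCODE M21 (GRCm38), and promoter sequences from RefSeq, which matched 5 members (Cyr61 as Ccn1). Smad7, Skil, Ctgf and Pmepa1 had none.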

Additional observations from a re-analysis of the deposited data

Results flagged for a closer look

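Ctgf differed in its response to Smad3CA between days. The difference between +Sm3CA and Cont changed by -1.44 on the log2 scale from day 3, when it was 0.58 ± 0.24, to day 10, when it was -0.86 ± 0.24 (SE; adjusted p = 0.0253 by edgeR for the change). All 3 +Sm3CA libraries were above all 3 Cont libraries on day 3 and below them on day 10. The adjusted p rose to between 0.0515 and 0.115 when 1 of 8 libraries was left out, as named with the result. Groups of 3 are too small for a test of single libraries.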

How the results depend on the processing

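Over 962 recomputed fold changes of members, 894 kept their direction and their side of the threshold, 47 lost the call, 20 gained it and 1 turned: Smad7 in the change of the difference from day 3 to day 8, not called, was -0.70 and ranged from -1.05 to 0.04 without 1 library, the last without Cont day 8 replicate 3. The number of members called, of 9, moved as follows. For +Sm3CA against Cont on day 8 (1 called) it was 2 by DESeq2's Wald test and 0 in a fit of these libraries alone, and 0 to 2 without 1 library. On day 10 (3 called) it was 1 by the Wald test and 0 to 3 without 1 library. For the change of the difference from day 3 to day 10 (1 called) it was 0 with all 30 libraries in the fit, 2 without a filter and 0 to 3 without 1 library. For the change to day 8 (0 called) it was 1 by the Wald test, 1 with the replicate block and 0 to 1 without 1 library. In +Sm3CA it was 2 to 5 without 1 library from day 3 to 6 (5 called), 1 by the Wald test and 0 to 1 without 1 library from day 6 to 8 (0 called), and 0 with all 30 libraries and 0 to 1 without 1 library from day 8 to 10 (1 called). In Cont from day 8 to 10 (0 called) it was 0 to 1 without 1 library. For MEFs to Cont on day 3 it was 7 to 8, for Cont on day 10 to ESCs 6 to 7 and for MEFs to ESCs 6 to 8 without 1 library. Of the other TGF-beta response genes, 1 to 4 were called on day 8 (3 called) and 6 to 12 on day 10 (11 called) without 1 library, and 5 on day 8 without a filter.

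Counts over all genes moved by over 1.5 times without the filter (11 for 2, 10 for 1 and 264 for 106 on days 3, 6 and 8 between the vectors, 198 for 103 in the change to day 10, 265 for 173 and 374 for 246 in the last 2 steps of Cont), with all 30 libraries (42 for 103, and in the steps 540 for 934, 107 for 173, 138 for 246, 313 for 684 and 225 for 497) and with the compared libraries alone (5 for 1 on day 6, 25 for 106 on day 8, 3485 for 5689 from Cont and 3004 for 5028 from +Sm3CA to ESCs). For the change to day 8 it was 21 by DESeq2 and 9 with the block for 3. The fit of fewer libraries leaves fewer degrees of freedom; other causes were not tested. Without 1 library, 21 to 523 genes were called for 106 on day 8, 176 to 450 for 366 on day 10 and 163 to 1062 for 684 from day 6 to 8 in +Sm3CA.

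With the replicate number as a block, Smad7 was called higher in ESCs than in Cont on day 10 (0.99, adjusted p = 0.0412), which made 7 of 9 members for 6, and Ctgf was called in the change to day 8. It changed no other call of a member. Same-numbered libraries of Cont and +Sm3CA correlated from -0.125 to 0.075 in their deviations, so across the vectors they share only a number. With TMM-scaled counts in place of size factors 87 of 90 group means moved by less than 1 SD, except Skil and Cyr61 in MEFs (80.2 for 86.0 and 532.7 for 571.3) and Pmepa1 in Cont on day 6 (69.7 for 68.0), and the members whose libraries did not overlap were the same in number on each day. Depth limits Ltbp2, at 2 to 30 reads in the reprogramming libraries, and Smad7, at 6 to 49 reads.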
